A study of Mus musculus with 14 samples.

Results

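Cytosolic ribosomal protein genes encode the proteins that, with ribosomal RNA, build the 40S (small) and 60S (large) subunits of the ribosome. The genes followed here were those whose symbol is Rpl or Rps with a number, together with Rplp0, Rplp1, Rplp2 and Rpsa, without the Rps6k kinases and without pseudogenes, and only probes assigned to a single gene symbol were used. The rule found 74 genes with 177 probes, out of 13661 named genes and 33600 probes on the array. Of these members, 47 belong to the 60S subunit, 27 belong to the 40S subunit, and 6 carry names of paralogues (Rpl22l1, Rpl36al, Rpl39l, Rpl3l, Rpl7l1 and Rps27l). A table of RefSeq genes holds 89 protein-coding genes that fit the same names, and those outside the 74 were not analysed here. Where a gene had several probes (44 of 74 genes), the probe with most values was used, and the brighter one among equals.

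RNA came from astrocytes of newborn mice. The samples were 4 of Cx43 null cells (Cx43, or connexin43, is the gap junction protein encoded by Gja1), 4 of wild-type cells transfected with 20 ug of an siRNA construct against Cx43, and 6 of untreated wild-type cells. Cells were passaged once, and the siRNA acted for 36 h per the design text, while the protocol gives 48 h for protein. The labels call the cells cortical, the protocol describes minced whole brain, and neither gives the allele behind the null cells. The siRNA lowered Cx43 protein by at least 70% and its mRNA 3.24-fold, per the design text. The design text speaks of 4 independent cultures per group, but no label links samples to cultures, so a p-value here speaks of the spread among samples, and that spread may be technical.

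The values are log2 values that the authors centred, so each sample has a median of 0 over its probes, and a level is a distance from that median. Between 53.1% and 79.8% of all probes had a value in each of the samples used. Wild-type replicates 1, 2 and 5 were left out with earlier results of these data known. Their correlation with the average of the 11 samples used was 0.37, 0.38 and -0.02. Each of those 11 gave 0.89 to 0.95 with the average of the others among them. That average holds none of the samples left out, so these values describe the choice and are no test of it. Samples with consecutive numbers (1 and 2, 3 and 4), 1 labelled with Cy3 and the next with Cy5, read nearly alike: the correlation was 0.923 to 0.990 in these 5 pairs and at most 0.911 in any other pair. They may share an array, which the labels do not say, and p-values that treat them as independent may then be too small. The targeted gene, Gja1, read -1.17, -1.06, 2.82 and 3.03 in the libraries labelled null 1 to 4 and 1.93, 2.14, 5.47 and 5.70 in those labelled siRNA 1 to 4, against 6.08, 7.53 and 4.82 in wild type. Libraries labelled siRNA 3 and 4 thus lay within the wild-type range, and where the probe lies relative to the null allele is not known here. Null and siRNA are therefore names of labels in what follows. Of the 10 astrocyte markers, Glul averaged at percentile 98.5 of the probes, Aqp4 at 93.5, Slc1a3 at 90.1 (values in 4 samples), Aldh1l1 at 82.0 and Gja1 at 78.8. Sox9 averaged at 67.8, Aldoc at 60.03, S100b at 37.2 (values in 7 samples) and Slc1a2 at 35.03, and Gfap had no value in any of the 11 samples.

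Ribosomal protein mRNAs are among the most abundant messages of most cells, and their products are made in matched amounts because each ribosome holds a single copy of most of them. Many begin with a run of pyrimidines (the terminal oligopyrimidine, or TOP, motif) through which mTOR signalling controls their translation in response to nutrients and growth factors. Proteins made in excess of ribosomal RNA are normally degraded, and free Rpl5 and Rpl11 bind Mdm2 and so stabilise p53. In bulk samples, fewer cells of a type and less RNA per cell cannot be told apart.

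Stretches around the annotated gene start are shown, because the shared pyrimidine start is what the family is known for. They come from 3 members with the letters CTTTC and 4 without them (proteins of the stalk and its base, of the 40S subunit, and a tissue-restricted paralogue). They run from 15 bases before the start to 15 after it, on the gene's strand, 5′ to 3′, from RefSeq promoters of GRCm38.p6. Capitals mark CTTTC, the only letters searched for. The loci are chr7:141447636-141447665 (plus strand) for Rplp2, chr3:90213634-90213663 (minus) for Rps27, chr2:32961697-32961726 (plus) for Rpl12, chr4:86857353-86857382 (minus) for Rps6, chr5:115559452-115559481 (plus) for Rplp0, chr13:90923107-90923136 (plus) for Rps23 and chr17:24727811-24727840 (plus) for Rpl3l.
Rplp2: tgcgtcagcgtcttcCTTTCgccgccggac
Rps27: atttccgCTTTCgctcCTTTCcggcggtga
Rpl12: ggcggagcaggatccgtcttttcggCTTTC
Rps6: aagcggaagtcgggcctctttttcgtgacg
Rplp0: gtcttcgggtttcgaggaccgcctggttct
Rps23: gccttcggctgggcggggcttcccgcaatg
Rpl3l: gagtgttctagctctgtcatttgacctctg

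CTTTC stood in the first 3 of these stretches and in none of the other 4. Of 61 members with a promoter entry, 16 (26.2%) held CTTTC in the 30-base window, against 4.76% of 27025 genes. Its reverse complement, GAAAG, was in 3 members (4.92%) and in 4.22% of all genes. A match describes letters in this window only and marks no proven start site, and a stretch without CTTTC can still begin with pyrimidines. That of Rps6 has a run of pyrimidines from the annotated start on, while CTTTC in Rpl12 lies at the end of the window. These counts are thus not counts of members with a pyrimidine start.

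Ribosomal protein genes stood near the top of every sample. The median over members lay between 5.75 and 6.66 in null samples and between 5.87 and 6.59 in siRNA samples, against 6.21 to 6.73 in wild type, and corresponded to percentiles of 97.2 to 98.3 among the measured probes. On average over the samples, 56 members lay above 5, 8 between 2 and 5, and 10 at or below 2. The 60S members had a median level of 6.34 and the 40S members of 5.96. Levels of different probes depend on the probe as well as on the RNA, so the order of genes below is a description of spots.

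**Figure D1:**
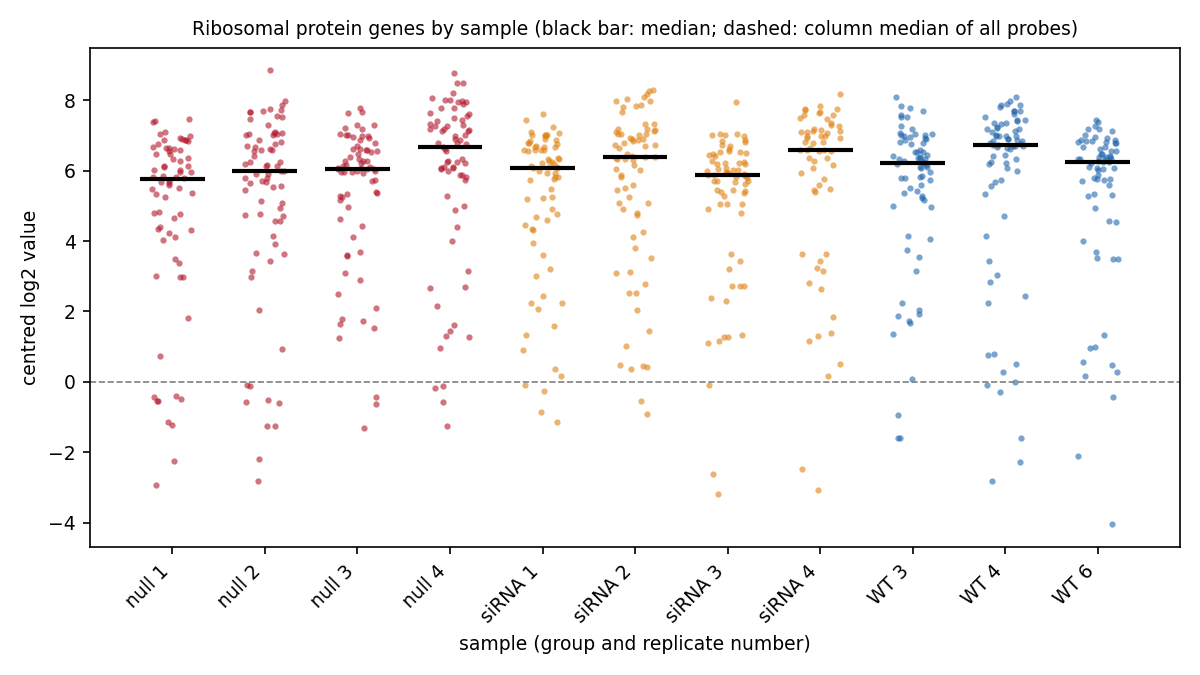
Centred log2 values (vertical axis) of the 74 ribosomal protein genes in each of the 11 samples used (horizontal axis), 1 point per gene, with the median of the genes as a black bar. The medians lie between 5.75 and 6.73 in every sample, and a tail of genes lies near or below 0.

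The 3 highest members were Rps12 (mean 7.49), a protein of the small subunit, and the large-subunit proteins Rpl7a (7.45) and Rpl35a (7.42). Rps12 read 7.48, 7.87, 7.64 and 7.03 in null replicates 1 to 4 and 7.24, 8.08, 6.97 and 7.82 in siRNA replicates 1 to 4, against 7.77, 7.71 and 6.80 in wild-type replicates 3, 4 and 6. The values of its 3 groups overlapped throughout. At the lower end stood Rpl39l (mean -2.57), a paralogue known from testis, and Rpl3l (-2.12), a paralogue known from heart and skeletal muscle, each with a value in 7 of 11 samples. Next lowest, Rpl17 (-0.46), was a core 60S protein whose best-measured probe lay 6.89 below another probe of the same gene. In all, 6 members had a best-measured probe more than 2 below their brightest probe, among them Rpl10a and Rps21, and 4 of the 10 members at or below 2 had another probe above 5. A low level here can thus be that of the probe.

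The acidic stalk proteins recruit the elongation factors to the ribosome. Rplp0, their anchor, read 4.02, 4.13, 6.29 and 6.90 in null replicates 1 to 4 and 4.59, 4.74, 5.92 and 6.55 in siRNA replicates 1 to 4, against 5.59, 6.70 and 5.76 in wild type. Replicates 1-2 lay below all other samples in both groups. Rplp2 read 6.48, 7.09, 6.46 and 7.78 in null replicates and 6.28, 7.19, 6.44 and 7.49 in siRNA replicates, against 6.86, 7.12 and 6.08 in wild type, and its groups overlapped. Rplp1 read 5.79, 6.70, 5.94 and 7.77 in null replicates and 6.68, 7.32 and 6.49 in siRNA replicates 1 to 3, against 7.05 and 7.88 in wild-type replicates 3 and 4, with no value in siRNA replicate 4 or wild-type replicate 6. Its groups overlapped as well.

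Rpl5, which with Rpl11 carries the smallest RNA of the large subunit and binds Mdm2, read 5.26, 5.79, 5.96 and 7.19 in null replicates and 5.98, 6.49, 5.79 and 7.09 in siRNA replicates, against 6.19, 6.91 and 6.23 in wild type. Rpl11 read 5.49, 6.26, 5.98 and 7.64 in null replicates and 5.93, 6.39, 6.06 and 7.13 in siRNA replicates, against 6.36, 7.18 and 6.84 in wild type. For both genes the groups overlapped. In all 5 consecutive pairs the even-numbered sample, labelled with Cy5, read higher, as did the median over all members. Rps6, the 40S protein phosphorylated by S6 kinases, read 3.38, 3.92, 5.40 and 6.24 in null replicates and 4.33, 5.07, 5.41 and 6.82 in siRNA replicates, against 5.84, 6.74 and 6.25 in wild type. Its replicates 1-2 were the lowest samples in each group. Rpsa, a 40S protein also known as the laminin receptor, read -0.41, -0.10, 1.77 and 0.96 in null replicates and 0.36, 0.37, 2.39 and 2.64 in siRNA replicates, against 1.67, 0.28 and 1.32 in wild type, so that siRNA replicates 3-4 were its highest samples.

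Among the paralogue pairs, Rpl22 read 2.99, 3.44, 3.58 and 3.15 in null replicates and 2.07, 2.53, 2.73 and 3.14 in siRNA replicates, against 3.55, 2.85 and 3.70 in wild type. Rpl22l1, the paralogue that Rpl22 is known to repress, read 4.401, 4.56, 6.04 and 6.10 in null replicates and -0.10, 0.47, 5.88 and 6.28 in siRNA replicates, against 6.10, 6.86 and 5.73 in wild type. The 2 low Rpl22l1 values were those of siRNA replicates 1-2, while Rpl22 ranged from 2.07 to 3.70 over all samples. Rps27l, a paralogue of Rps27 and a p53 target, read 5.33, 5.44, 4.43 and 5.28 in null replicates and 5.92, 6.01, 5.45 and 6.80 in siRNA replicates, against 5.43, 6.07 and 6.604 in wild type. Null and wild type overlapped, and its difference between null and siRNA did not pass the threshold of the main fit described below. Rpl10, which joins the large subunit late in its assembly, read 6.56, 6.81, 5.25 and 7.26 in null replicates and 6.07, 6.31 and 6.02 in siRNA replicates 1 to 3, against 6.93, 7.42 and 6.57 in wild type, with overlapping groups.

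Values were missing unevenly. Of 74 members, 57 had a value in all 11 samples, 10 had 10 values and 7 had fewer. The sample that stood out was siRNA replicate 4, where 61 members (82.4%) had a value, against 69 to 73 in each of the other 10 samples. The 13 members without a value there (Rpl10, Rpl19, Rpl26, Rpl32, Rpl37, Rpl37a, Rpl39, Rpl9, Rplp1, Rps14, Rps28, Rps29 and Rps9) had a median level of 6.69 in the other samples, against 6.08 for the 61 that were measured. Bright probes were also the ones missing among all genes: of 424 probes with a mean of 6 or more in the other samples, 156 (36.8%) had no value in siRNA replicate 4, against 0 of 449 in siRNA replicate 3. Among member probes at that level it was 34 of 76. In wild-type replicate 6, 51 of 445 such probes (11.5%) were missing, and in null replicate 1, 27 of 475 (5.68%). The reason for a missing value is not stated in the labels or the file.

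**Figure D2:**
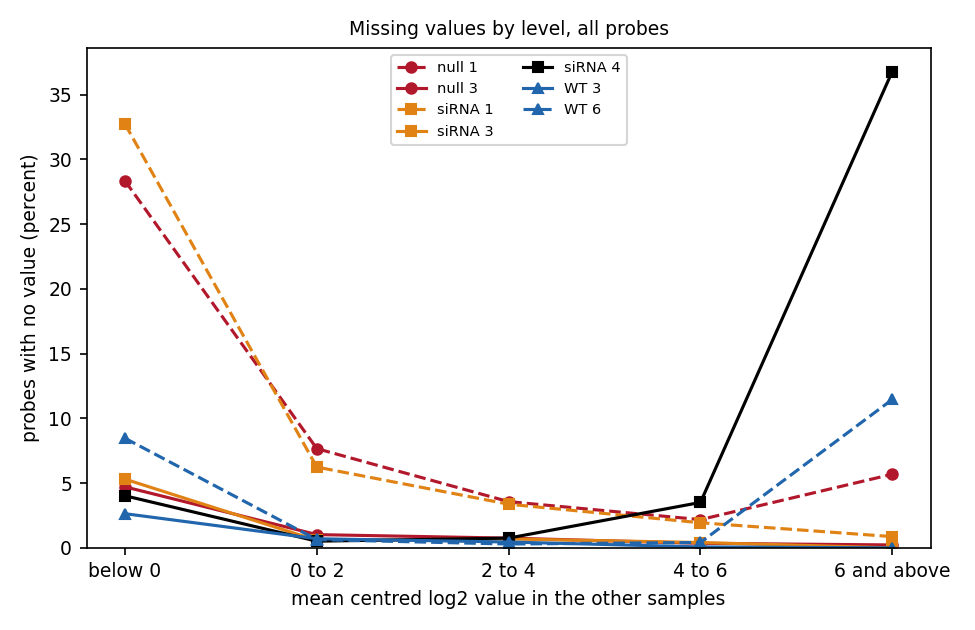
Percent of all probes with no value (vertical axis) against the mean centred log2 value of the probe in the other samples (horizontal axis, 5 bins), for 7 samples. In siRNA replicate 4 the share reaches 36.8% in the brightest bin, whereas null replicate 1 and siRNA replicate 1 lack values mainly below 0 (28.3% and 32.7%).

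Because of these gaps, 5 members could not be tested. Rpl39l and Rpl3l had 7 values each. Rps14, a 40S protein, read 7.67, 6.28 and 7.96 in null replicates 2 to 4 and 7.60, 8.29 and 6.61 in siRNA replicates 1 to 3, against 6.06 and 7.82 in wild-type replicates 3 and 4, and its groups overlapped. Rps28 and Rps9 were measured in replicates 1-2 alone: Rps28 stood at 6.65 and 7.03 in the null pair, and at 6.68 and 7.04 in the siRNA pair. Rps9 read 6.99 and 7.66 in null but 3.002 and 2.79 in siRNA replicates 1 and 2, a difference that was not tested. The other 69 members entered a linear model (limma, all 16261 probes with enough values) with a mean for wild type and for each pair of null and siRNA replicates, plus the dye, and p-values were adjusted by Benjamini-Hochberg over all 16261 probes.

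For the null genotype, the libraries labelled null 3 and 4 were set against wild-type replicates 3, 4 and 6, that is, without any replicate 1 or 2. Gja1 itself was lower there (-3.19 ± 0.63 SE, limma adjusted p = 0.0193) but averaged 2.93, above the 2.03 of libraries labelled siRNA 1 and 2. None of the 69 members passed the threshold (adjusted p under 0.05) in limma, whereas 5.52% of all probes did (897 of 16261). This holds for the chosen probes only. Of the other probes, limma called 3 of Rpl5, 2 of Rpl35a and 1 each of Rpl34 (-4.21), Rplp0 and Rpl37a (-1.98), all lower. At an unadjusted p under 0.05 there were 7 members. The median member difference was 0.19 on the log2 scale, against 0.30 over all probes; 40 members were positive and 29 negative, with differences between -1.23 and 1.33. The 60S members had a median of 0.21 and the 40S members of -0.06. These leanings depended on the scaling: after quantile normalization 33 members were positive and 36 negative (median -0.02, all probes 0.23), and after scaling every sample to 1 spread (median absolute deviation) 58 were positive and 11 negative (median 0.68, all probes 0.44). Without wild-type replicate 3, limma called 1 member, Rpl14 (1.57 ± 0.35 SE, adjusted p = 0.0259), a 60S protein named here after its value was seen. In that fit 17.0% of all probes were called.

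The 3 members with the smallest unadjusted p were all of the small subunit. Rps2 read 7.18 and 6.57 in null replicates 3-4, against 5.51, 5.35 and 5.89 in wild type (difference 1.33 ± 0.43 SE, limma adjusted p = 0.101). Rps23, which lies at the decoding centre, read 3.69 and 4.89, against 5.24, 5.69 and 6.10 in wild type (-1.23 ± 0.44 SE, limma adjusted p = 0.139). Rps7 read 5.97 and 6.04, against 4.98, 4.70 and 5.35 in wild type (1.02 ± 0.38 SE, limma adjusted p = 0.144). In each of the 3 the values of null replicates 3-4 and wild type did not overlap, as at 31% of complete probes, and no difference passed the threshold. For Rps23, null replicate 2 (7.47) lay above every wild-type value.

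The libraries labelled siRNA 3 and 4 were compared in the same way, and with the same wild-type samples, so the 2 comparisons are not independent. Gja1 did not differ past the threshold in this comparison (-0.53 ± 0.63 SE, limma adjusted p = 0.639), so the comparison is one between labels. In the libraries labelled siRNA 3 and 4 against wild type, limma called 3 of 69 members, all higher, while 11% of all probes were called (6.51% higher). That direction holds for the chosen probes only. Of the other probes, limma called 1 each of Rps12 (lowest difference -4.54), Rpl9 (-2.28), Rpl21, Rpl35a and Rpl29 lower, and 1 of Rplp0 higher. The median member difference was 0.03, against 0.06 over all probes, with 38 members positive and 31 negative; scaled to 1 spread, 10 were positive and 59 negative (median -0.75, all probes -0.14), and limma called 0 of them (7 at an unadjusted p under 0.05). Rps7, a 40S protein that also binds Mdm2, read 6.19 and 7.09 in siRNA replicates 3-4, against 4.98, 4.70 and 5.35 in wild type. It rose by 1.66 ± 0.38 SE (limma adjusted p = 0.0207). All 4 siRNA values (6.34, 6.37, 6.19 and 7.09) and all 4 null values (6.34, 6.15, 5.97 and 6.04) of Rps7 lay above the 3 wild-type values, as at 0.85% of complete probes, and this gene has a single probe.

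The other 2 calls rested on dim probes. Rpl10a, the 60S protein used as a tag in ribosome affinity purification, read 2.30 and 2.80 in siRNA replicates 3-4, against 1.36, -0.08 and 0.98 in wild type (1.81 ± 0.47 SE, limma adjusted p = 0.0349). Rps21, a 40S protein, read 1.10 and 1.16, against -0.93, -1.61 and 0.28 in wild type (1.92 ± 0.50 SE, limma adjusted p = 0.0362). The brighter probes of both genes differed in the other direction: -0.41 and -0.78 for the 2 other probes of Rpl10a and -1.13 for the other probe of Rps21, none of them called.

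The calls depended on the model and on single samples. With the replicate number as a block, limma called 0 members in null (1.11% of all probes, 3 members at an unadjusted p under 0.05) and 2 in siRNA (8.29% of all probes), namely Rps7 (1.67, adjusted p = 0.0360) and Rps21 (2.23, adjusted p = 0.0135), but not Rpl10a (1.71, adjusted p = 0.0628). With a common shift for replicates 1-2 and consecutive samples as a random block (estimated correlation 0.452), limma called 0 of the 69 members in null (0.0% of all probes) and 0 in siRNA (1.15% of all probes), both against wild type, with 0 and 3 members at an unadjusted p under 0.05. The adjusted p of the 3 genes there was 0.189 to 0.269. Limma made 0 calls without siRNA replicate 3 and 0 without siRNA replicate 4 (6 and 4 members at an unadjusted p under 0.05). Leaving out wild-type replicate 4, or any 1 of the 4 null samples, left Rps7 alone past the threshold, and leaving out wild-type replicate 6 added Rpsa (1.54, limma adjusted p = 0.0480). Without wild-type replicate 3, Rps21 did not pass and Rps3, named after its value was seen, did (1.27, limma adjusted p = 0.0484).

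Microglia markers were lower in siRNA samples than in null or wild type, a difference that was not tested. The median of the list (7 of 10 genes had a probe) ranged from 0.74 to 1.74 in siRNA samples. In null samples it ranged from 2.05 to 5.39, which held the whole wild-type range of 3.30 to 4.52. Fibroblast markers (6 of 6) ranged from -1.10 to 1.07 in null samples and from -2.30 to -1.14 in siRNA samples, against 0.55 to 3.69 in wild type. The part of either list in the member results was not tested. Astrocyte markers (10 of 10) had list medians of 1.93 to 3.01, oligodendrocyte markers (9 of 10) of -0.81 to 0.99 and neuron markers (6 of 7) of -1.52 to -0.10 over all 11 samples.

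**Figure D3:**
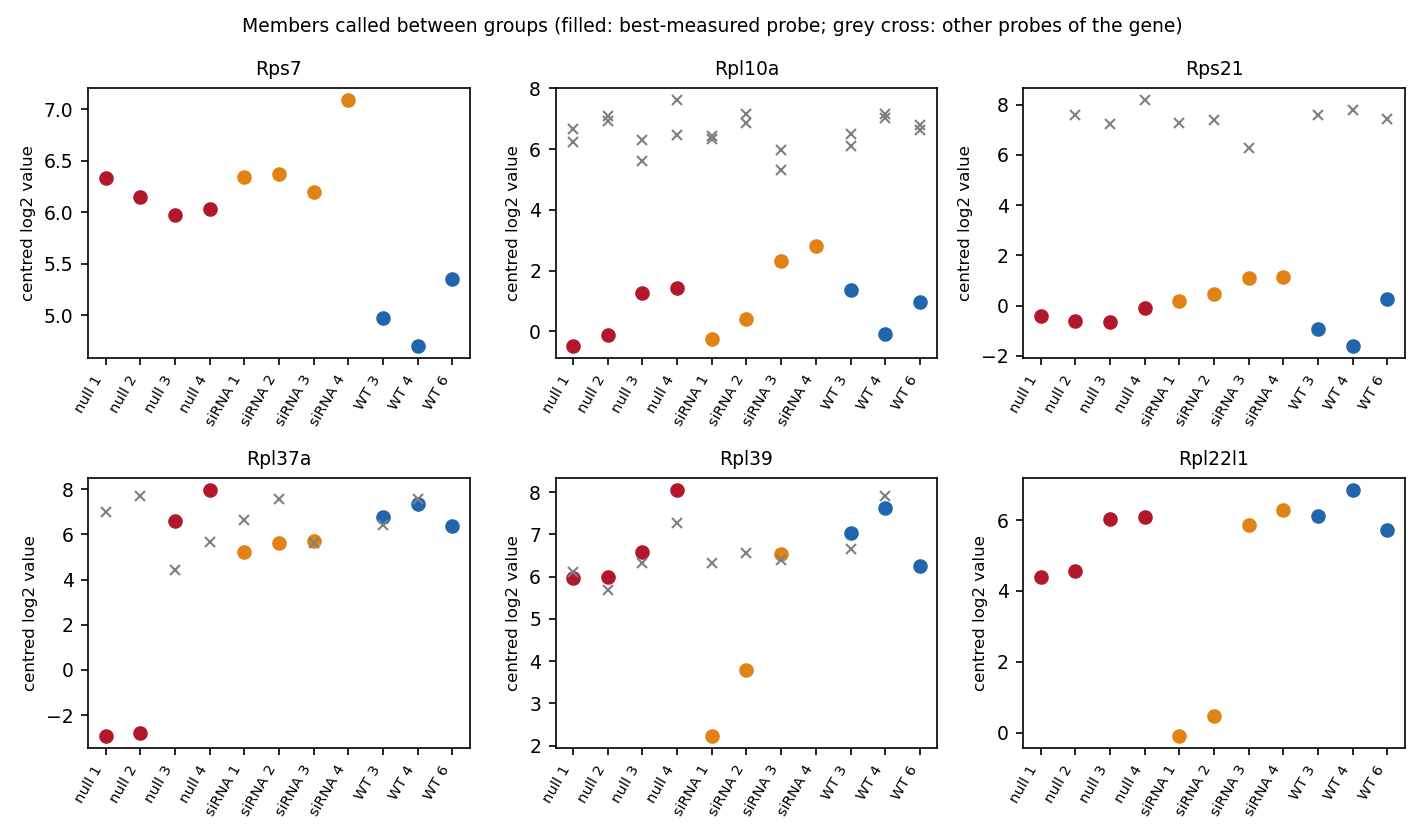
Centred log2 values (vertical axes) of the 6 members called between groups, by sample (null in red, siRNA in orange, wild type in blue), with the best-measured probe filled and other probes of the same gene as grey crosses. Rps7 lies between 4.70 and 5.35 in wild type and at 5.97 or above in the 8 other samples, and the lowest values of Rpl37a, Rpl39 and Rpl22l1 stand in replicates 1-2 of a single group.

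Null and siRNA samples were compared directly over all 4 replicates of each, with both replicate pairs weighing equally. Limma called 3 of 69 members, all of the 60S subunit, against 13.4% of all probes. Only the chosen probes give this reading. Of the other probes, limma called 1 of Rps12 (highest difference 2.81) and 1 of Rps2 (2.61), both of the 40S subunit, and 1 of Rpl9 higher. It called 3 of Rplp0, 2 each of Rpl5 and Rpl35a, and 1 of Rpl34 lower. The median member difference was -0.10, against 0.07 over all probes. It was -0.26 over 40S members, 19 of 24 of which were negative, and -0.01 over 60S members, 23 of 45 of which were negative. Scaled to 1 spread, however, 56 of the 69 members were positive and 13 negative (median 0.60, all probes 0.24).

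Rpl37a, a small zinc-binding protein, read -2.93, -2.81, 6.605 and 7.98 in null replicates 1 to 4, against 5.21, 5.61 and 5.71 in siRNA replicates 1 to 3. Rpl39, which lines the peptide exit tunnel, read 5.98, 5.998, 6.57 and 8.05 in null replicates, against 2.23, 3.80 and 6.54 in siRNA replicates 1 to 3. The averaged differences were -3.46 ± 0.38 SE for Rpl37a (limma adjusted p = 0.000635), 1.70 ± 0.47 SE for Rpl39 (limma adjusted p = 0.0421) and 2.14 ± 0.30 SE for Rpl22l1 (limma adjusted p = 0.00174), whose values are given above. All 3 differences were wide in replicates 1-2 and smaller in replicates 3-4.

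Within replicates 1-2 the null minus siRNA difference was -8.28 for Rpl37a, 4.30 for Rpl22l1 and 2.97 for Rpl39, with limma adjusted p of 0.000100, 0.000592 and 0.0276. Within replicates 3-4 it was 1.35, -0.01 and 0.43, with limma adjusted p of 0.148, 0.992 and 0.725. Each side of these comparisons is 1 consecutive pair, so an effect of the pair cannot be told apart from the label. In replicates 1-2, limma called 4 of 69 members (4.3% of all probes), the 3 above and Rps25, a 40S protein (-1.91). In replicates 3-4 it called 2 (12.7% of all probes), Rps3 (-1.44) and Rpl7l1 (-1.55), named here after their values were seen.

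Second probes of these genes did not show the same values. The other probe of Rpl37a read 6.99 and 7.69 in null replicates 1-2, where the best-measured one lay below -2, and 6.63 and 7.58 in siRNA replicates 1-2. The other probe of Rpl39 read 6.11 and 5.68 in null replicates 1-2, against 6.32 and 6.56 in siRNA replicates 1-2. Rpl22l1 has 1 probe.

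With the replicate number as a block, only Rpl39 passed (1.98, limma adjusted p = 0.0484; 8.74% of all probes), while Rpl37a (-4.87, adjusted p = 0.0558) and Rpl22l1 (2.14, adjusted p = 0.0864) did not. With the random block described above, limma called 0 of the 69 (0.738% of all probes, 4 members at an unadjusted p under 0.05), and adjusted p of the 3 genes was 0.217 to 0.284. Rpl39 passed without siRNA replicate 2, wild-type replicate 3 or wild-type replicate 6 (adjusted p of 0.0360, 0.0425 and 0.0136) and in no other fit that left out 1 sample. Without siRNA replicate 3, Rpl37a and Rpl39 could not be fitted and Rpl22l1 was the only call. Limma called 5 members without wild-type replicate 3 (19.7% of all probes), and 6 without wild-type replicate 6 (20.7% of all probes). In the latter fit Rps21 (-1.16), Rps27l (-0.93) and Rps3 (-0.90) were added. The share over all probes was thus also above the 13.4% of the main fit.

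More ribosomal protein genes were called between replicate numbers than between groups. Replicates 1-2 were set against replicates 3-4 within null and within siRNA, and the 2 differences were averaged. Of 69 members, 27 were called by limma (39.1%), 23 lower and 4 higher in replicates 1-2, against 52.1% of all probes (44.1% lower, 7.95% higher). The median member difference was -0.31, against -0.76 over all tested probes, so the members lay nearer to 0 than the tested probes as a whole. Each sample is centred over its own measured probes, so lower means lower relative to that centre. In null and siRNA, 53.1% to 59.0% of probes had a value in replicates 1-2 samples and 71.1% to 79.8% in replicates 3-4 samples. The part of this in the counts of lower and higher probes was not tested. The 40S members (10 of 24 called, median -0.47) and the 60S members (17 of 45, median -0.28) both leaned down. After quantile normalization 25 members were called, 17 lower and 8 higher. With the random block, 15 members were called, 13 lower and 2 higher (30.6% of all probes, 27.6% lower and 2.97% higher), and without null replicate 2, 17 members were called.

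Of the 57 members with all 11 values, 17 (29.8%) had both values of replicates 1-2 below both of replicates 3-4 in null and also in siRNA, against 45.2% of 14243 complete probes. The reverse held for 1 member (1.75%), against 7.46% of probes. The letters CTTTC marked above were found in 5 of 18 members that fell and had a promoter entry, in 1 of 4 that rose and in 9 of 35 that were not called.

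The 5 members that fell most were Rpl37a (-5.35 ± 0.38 SE), Rpl22l1 (-3.74 ± 0.30 SE), Rpl39 (-2.60 ± 0.47 SE), Rps24 (-2.52 ± 0.38 SE) and Rps20 (-2.40 ± 0.33 SE), with limma adjusted p of 6.83e-06, 8.08e-06, 0.00135, 0.000349 and 0.000173. The other probe of Rpl37a was called in the opposite direction (1.63, limma adjusted p = 0.00225). That of Rpl39 differed by -0.55 and was not called (limma adjusted p = 0.259). Rps24, a 40S protein, read 3.50 and 3.66 in null replicates 1-2 against 7.29 and 6.24 in null replicates 3-4, and 4.76 and 5.24 in siRNA replicates 1-2 against 6.54 and 7.16 in siRNA replicates 3-4. Rps20, also of the 40S subunit, read -1.24 and -1.26 against 2.09 and 1.29 in null replicates and -1.14 and -0.90 against 1.17 and 0.51 in siRNA replicates. In both genes the pairs did not overlap in either group. A second probe of Rps24 also fell (-2.10) and the last differed by -0.0033.

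Core proteins of both subunits were among the other members that fell, including Rpl30 (-2.30 ± 0.33 SE), Rplp0 (-2.04 ± 0.29 SE), Rpsa (-1.88 ± 0.35 SE), Rps6 (-1.79 ± 0.27 SE) and Rps27 (-1.62 ± 0.29 SE), with limma adjusted p of 0.000264, 0.000250, 0.00114, 0.000363 and 0.000923. The other probe of Rps6 differed by 1.03 (limma adjusted p = 0.168). In null alone that probe was called higher in replicates 1-2 (2.19, limma adjusted p = 0.0479). Rpl30 read 4.33 and 4.70 against 6.14 and 7.50 in null replicates and 4.69 and 4.26 against 6.43 and 7.12 in siRNA replicates. All values of its replicates 1-2 lay below those of replicates 3-4.

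The 4 members that rose were Rps23 (2.57 ± 0.39 SE, limma adjusted p = 0.000522), Rpl41 (1.58 ± 0.40 SE, 0.00861), Rpl31 (1.14 ± 0.29 SE, 0.00732) and Rpl12 (0.92 ± 0.33 SE, 0.0383). Rps23 read 7.47 in null replicate 2 (replicate 1 had no value) against 3.69 and 4.89 in null replicates 3-4, and 6.88 and 7.04 against 3.62 and 5.45 in siRNA replicates. Rpl12, part of the base of the stalk, read 6.86 and 7.56 against 7.002 and 7.14 in null, where the pairs overlapped, and 7.001 and 8.04 against 5.06 and 6.58 in siRNA replicates. Of its 4 tested probes, 2 were positive and 2 negative, and no other probe was called (-0.77 to 0.76). Rpl31, a protein near the exit of the peptide tunnel, read 7.11 and 7.69 against 6.05 and 7.32 in null replicates, where the pairs overlapped, and 7.09 and 7.65 against 5.46 and 6.16 in siRNA replicates, where they did not. The other probe of Rpl31 differed by 0.17 (limma adjusted p = 0.807). Rpl41, the smallest ribosomal protein, read 8.85 in null replicate 2 against 4.61 and 7.55, and 6.76 and 8.19 against 5.05 and 6.94 in siRNA replicates, so that its siRNA pairs overlapped. Its other probe was called in the opposite direction (-1.47, limma adjusted p = 0.00835), and the mean of its probes differed by 0.038. The call of Rpl41 was lost without siRNA replicate 1 (1.30, limma adjusted p = 0.0505), and that of Rpl12 without any 1 of null replicates 1 to 4 or siRNA replicates 1 to 3 (0.63 to 1.06, adjusted p of 0.0545 to 0.194).

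**Figure D4:**
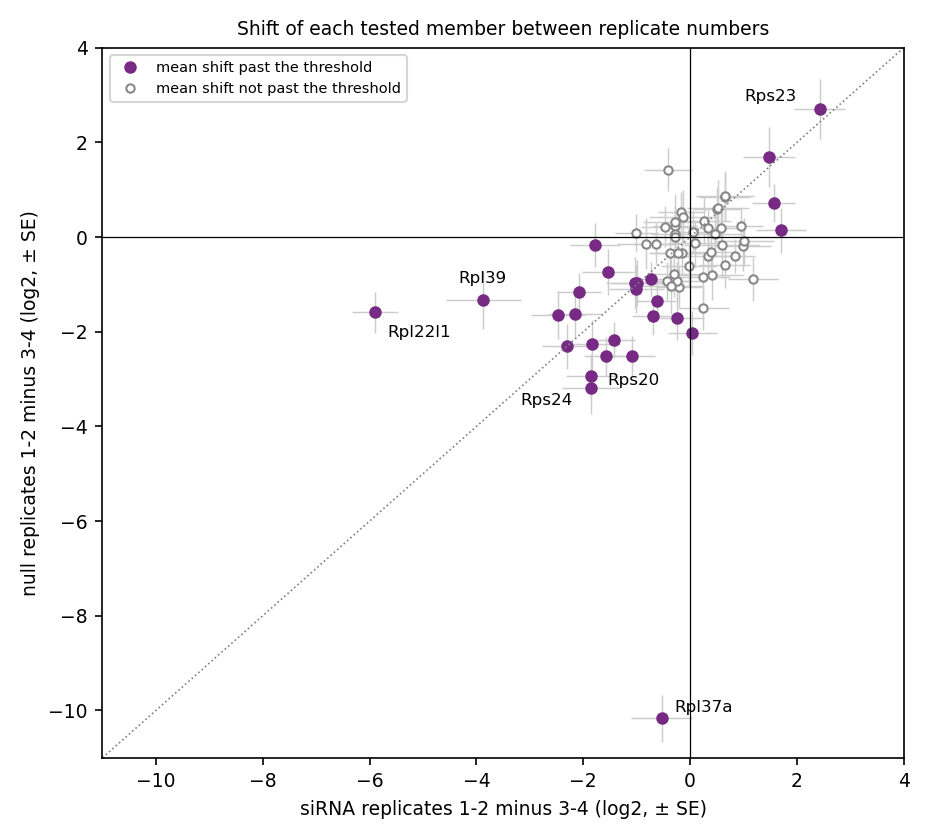
Difference of replicates 1-2 minus 3-4 for each of the 69 tested members in null (vertical axis) and in siRNA (horizontal axis), on the log2 scale with SE bars; filled points passed the threshold for the mean of both, and the dotted line marks equal differences. Most filled points lie in the lower left, and Rpl37a (-10.16 in null) and Rpl22l1 (-5.89 in siRNA) lie far from the line.

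The 2 groups differed in this shift for 2 of 69 members, while 3.69% of all probes did. Each mean behind this difference is that of 1 consecutive pair. An effect of the pair, such as a shared array, cannot be told apart from it. The p-values measure the spread within pairs and among wild-type samples. The null shift minus the siRNA shift was -9.63 ± 0.76 SE for Rpl37a (limma adjusted p = 0.000310) and 4.30 ± 0.61 SE for Rpl22l1 (limma adjusted p = 0.00419). Rpl37a shifted by -10.16 in null and by -0.53 in siRNA replicates, and Rpl22l1 by -1.59 in null and by -5.89 in siRNA replicates. Next by unadjusted p was Rps25 (-2.08 ± 0.65 SE, limma adjusted p = 0.113), which passed without wild-type replicate 3 (adjusted p = 0.0309). Without siRNA replicate 3, which is the only value of Rpl37a in siRNA replicates 3-4, Rpl37a could not be fitted and Rpl22l1 was the only call.

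Probes of the same gene bear on how far a single spot can be read. Of the 27 members called between replicate numbers, 10 have 1 tested probe. Of the 17 with several, all probes had the same sign in 6, and another probe was called in the same direction in 6. Rplp0 and Rpl5 carry 17 probes each, which are readings of 1 gene in the same samples and not replicates.

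For Rplp0, 16 of 17 probes were lower in null replicates 1-2 than in null replicates 3-4 (median -2.30), and 17 of 17 were lower in siRNA replicates 1-2 than in siRNA replicates 3-4 (median -1.68). Null replicates 1-2 also lay below siRNA replicates 1-2 at 17 of 17 probes (median -0.92). For Rpl5 the corresponding counts were 11 of 17 in null (median -0.71) and 17 of 17 in siRNA (median -1.22). The median probe difference was thus below 0 for both genes in both groups.

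The spread among the 17 probes was 0.30 to 0.61 (SD) in 9 of 11 samples for both genes. In null replicates 3 and 4 it was 1.21 and 1.02 for Rplp0 and 1.68 and 2.02 for Rpl5. There, single Rpl5 probes read as low as -1.42 and -1.04, against a lowest reading of 4.08 in the other 9 samples.

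**Figure D5:**
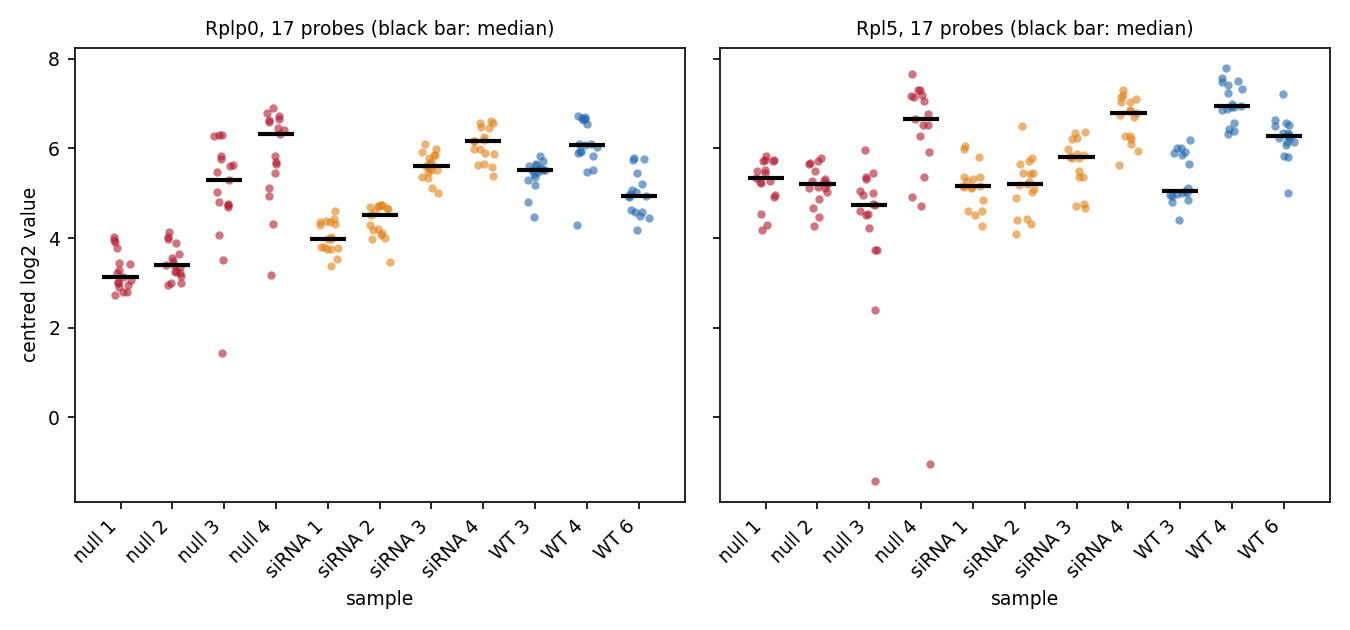
Centred log2 values (vertical axes) of the 17 probes of Rplp0 and of Rpl5 in each sample (horizontal axes), 1 point per probe, with the median as a black bar. The Rplp0 probes of replicates 1-2 lie between 2.72 and 4.74 in null and siRNA, and a few probes in null replicates 3 and 4 lie far below the others.

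The dyes alternate with the replicate number, so each null and siRNA pair holds both, while the wild-type samples used hold 1 Cy3 and 2 Cy5 samples. In the model's dye term (Cy5 minus Cy3), 56 of 69 members were positive, with a median of 0.35, against -0.05 over all probes. Limma called 0 members and 0.0% of all probes for the dye, and 18 members had an unadjusted p under 0.05. The 60S members leaned further (40 of 45 positive, median 0.48) than the 40S members (16 of 24, median 0.20), a difference that was not tested. The direction depended on the scaling: scaled to 1 spread, 9 members were positive and 60 negative (median -0.55, all probes -0.33). In the deposited values Rplp1 differed by 1.05 ± 0.31 SE, Rpl13 by 0.91 ± 0.26 SE and Rpl11 by 0.90 ± 0.25 SE.

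Other genes of translation, taken from lists chosen with earlier results known, are given by their counts. Against wild type, limma called 5.52% of all probes in null and 11% in siRNA, in either direction. Of 6 elongation factor genes, which share the TOP motif with the ribosomal proteins, 0 were called by limma in null or siRNA against wild type (0 and 2 at an unadjusted p under 0.05), and 1, Eef1g, rose in replicates 1-2 (1.15 ± 0.31 SE, limma adjusted p = 0.00961). Of 27 initiation factor genes, 2 rose in null and 2 in siRNA against wild type. Eif3b, a scaffold subunit of the factor that prepares the 40S subunit, was among the called genes in both (3.28 ± 0.80 SE in null, 3.69 ± 0.80 SE in siRNA, limma adjusted p of 0.0413 and 0.0166). Between replicate numbers, 52.1% of all probes were called, 7.95% higher and 44.1% lower (median -0.76). Of the 27 initiation factors, 18 were called there, of which 5 rose and 13 fell (median -0.86).

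Of 41 ribosome assembly genes, none was called by limma in null (12 at an unadjusted p under 0.05), against 5.52% of all probes. In siRNA 5 rose and 2 fell against wild type, while 11% of all probes were called. There, 32 of 41 differences were positive (median 0.48, all probes 0.06). Wdr75, a nucleolar factor of small-subunit assembly, fell by 4.99 on the log2 scale (SE 0.34, limma adjusted p = 3.93e-05), and Mybbp1a rose by 1.84 ± 0.36 SE (limma adjusted p = 0.0101). Between replicate numbers 3 of the 41 rose and 21 fell (median -0.81), with a median near that of all probes. Of 65 mitochondrial ribosomal protein genes, 4 fell in null, and in siRNA 3 rose and 1 fell, against wild type. Over all probes, 5.52% were called in null and 11% in siRNA. Between replicate numbers 7 of them rose and 29 fell (median -0.67), also near all probes. Of 12 other genes with TOP mRNAs, a list that shares Eef1g with the elongation factors and Eif4b with the initiation factors, 2 rose and 2 fell (median -0.14). Of 12 genes of ribosome-linked signalling 8 fell (median -1.27), against 44.1% of all probes (median -0.76), among them Rheb and Rptor of the mTOR pathway. The 1 tested ubiquitin fusion gene was not called in any comparison.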

How the data were processed

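Per the labels, 20 ug of total RNA from each sample received 1 of the dyes Cy3 and Cy5 before hybridisation to spotted arrays. The deposited series matrix holds 1 log2 value per probe and sample, centred by the authors to a column median of 0. Its scale was read from the values, and neither labels nor file state the background correction, filter or normalization. Signal over background is unknown for every value, and precision is limited by how many arrays there are. The probe annotation gave 18179 probes 1 symbol, 87 several, and 15334 are unnamed here.

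Samples were grouped by their titles. Members and gene lists were chosen with earlier results of these data known. Members were named as follows: a set of 13 genes chosen for their roles (of which Rps27a was not analysed here), the up to 5 largest called rises and falls per contrast, the 3 smallest unadjusted p where fewer than 3 were called, the ends of the level range and the least measured genes. Probes needed values in at least 2 wild-type samples and 1 of each null and siRNA pair, with at most 2 of 11 missing. Fits used limma 3.58.1 in R 4.3.3 (lmFit, eBayes, two-sided tests, Benjamini-Hochberg over 16261 probes per contrast) and were tested on simulated data. Missing values were left out of each probe's fit and none was imputed. Same-numbered samples of different groups deviated together from their group means in all 8 pairs (r from 0.12 to 0.65 over 14243 probes), so fits with the replicate number as a block are given beside the results. Much of this r is shared by replicates 1-2 and by replicates 3-4 whatever the number: null with siRNA samples gave 0.57 to 0.65 for the same number and 0.40 to 0.598 for the other number of the same pair. Against wild-type replicates 3 and 4, r was 0.12 to 0.39 for the same number and -0.20 to -0.05 for the other. Where a pairing would come from is not stated in the labels. Alternatives covered columns, the terms of the model, normalization, probe choice and left-out samples. Summaries used Python 3.11.15 with pandas 2.3.3, numpy 2.4.6 and matplotlib 3.10.9.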

Additional observations from a re-analysis of the deposited data

Results flagged for a closer look

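Single samples that lay far from the other 3 of their group were looked for in 46 groups of 4, where chance marks about 1 in 20, and 2 were found. Rps27l read 4.43 in null replicate 3, against 5.33, 5.44 and 5.28 in the other null replicates. The number of members with a value was 61 in siRNA replicate 4, against 72 in each of the other 3 siRNA replicates. The shift of replicates 1-2 against 3-4 differed between null and siRNA by a test of the difference itself for Rpl22l1 (4.30, limma adjusted p = 0.00419) and for Rpl37a (-9.63, limma adjusted p = 0.000310). Both values rest on a single probe per gene and on 1 consecutive pair for each mean, and the other probe of Rpl37a gave 1.35 (limma adjusted p = 0.260).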

How the results depend on the processing

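The list counts and medians depended on the columns, the model and the scaling, and the causes were not tested. In null against wild type, limma called 1 member with the brightest probe per gene, and the median difference was 1.45 with all 14 columns, -0.25 without a term for replicate numbers (-0.17 with the random block added) and 0.68 after scaling to 1 spread. In siRNA against wild type, limma called 0 members with all 14 columns, without the term for replicate numbers, after scaling, and with the random block with or without that term, at 4, 4, 7, 3 and 0 members with an unadjusted p under 0.05, and 1 with the brightest probe; the median was 1.44 with all 14 columns and -0.75 after scaling. In null against siRNA, limma called 0 with all 14 columns, without the term, with a common shift, and with the random block added to either of these, at 3, 4, 8, 0 and 4 members with an unadjusted p under 0.05; it called 1 with the replicate block, with complete probes and with the brightest probe, and 5 with the random block alone, and the median after scaling was 0.60. Between replicate numbers it called 5 with all 14 columns, 17 after scaling and 15 with a common shift and random block. For the difference between the shifts it called 0 with all 14 columns (2 at an unadjusted p under 0.05) and 1 after scaling, with complete probes and with the brightest probe, and the median after scaling was -1.50. The member median of null replicates 1-2 was 6.22 after quantile normalization, against 5.87. Directions reversed for Rps23 in null against wild type (0.26 with all 14 columns, 0.025 with the random block and no term), for Rps21 (-0.13 with all 14 columns, -0.93 as the mean of its probes, -1.13 with the brightest) and Rpl10a (-1.05 and -0.41 with the last 2 choices) in siRNA against wild type, for Rpl39 in null against siRNA (-0.19, brightest probe), and for Rpl37a between replicate numbers (1.63) and in the difference of shifts (1.35), both with the brightest probe. With 1 sample left out, calls ranged from 0 to 1 in null and 0 to 4 in siRNA against wild type, 1 to 6 between them, 17 to 29 between replicate numbers and 1 to 3 for the difference of shifts, and the medians, in the same order, from -0.01 to 0.32, -0.22 to 0.37, -0.32 to 0.05, -0.44 to -0.19 and -0.49 to 0.12; a pair left with 1 sample is assumed to vary like the others. With the replicate number as a block, limma called 0, 2 and 1 members in the 3 group comparisons (3, 4 and 8 at an unadjusted p under 0.05). The brightest-probe choice, the common shift with random block and its version without the term were chosen after seeing the data.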
